A study of Mus musculus with 6 samples.

Results

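The 10 genes described here are Dusp4, Dusp5, Dusp6, Spry1, Spry2, Spry4, Spred1, Spred2, Etv4 and Etv5, taken by symbol as classic transcriptional outputs and feedback inhibitors of the Ras-MAPK pathway. All 10 were among the 13405 genes listed in every library. The libraries are 6 RNA-seq profiles of 4T1 cells, a BALB/c mouse line derived from a mammary tumour: 3 from cells carrying a vector control and 3 from cells labelled as ATM knockout (ATM KO; the ATM kinase responds to DNA double-strand breaks). All 6 share the 4T1 background. The labels do not say how the knockout was made, whether it is 1 clone, or whether replicates were grown as separate cultures. The p-values therefore set the group difference only against the scatter of these libraries, and that scatter may be technical.

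In the MAPK cascade, growth factor receptors switch on Ras, which drives the kinases RAF, MEK and ERK in turn. ERK activity raises the transcription of its own inhibitors: dual-specificity phosphatases remove phosphate from ERK and related kinases, Sprouty proteins block signalling between receptor and Ras, and SPRED proteins bring the Ras-inactivating protein neurofibromin to the membrane. Etv4 and Etv5 encode ETS-family transcription factors of the PEA3 group that carry out part of the ERK response, and the repressor Capicua (Cic) holds them down until ERK relieves it. Levels of these mRNAs are widely used as a readout of ERK output in carcinoma cells.

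None of the 10 genes (0) passed the threshold for a difference between ATM KO and vector control cells. The test was limma on log2(normalized count + 1), with Benjamini-Hochberg adjustment over 12149 tested genes and a threshold of 0.05. It called 0 genes in all (0.0%), and 505 genes (4.16%) but 0 of the 10 had an unadjusted p under 0.05. The adjusted p was 0.999 for each of the 10. By edgeR 0 genes passed (0.0%), and 1 of the 10 had an unadjusted p under 0.05, against 522 of all tested genes (4.3%). DESeq2 called 84 genes (0.691%), none of the 10 (0) among them, and 1 of the 10 had an unadjusted p under 0.05, against 717 genes (5.9%). In both cases that gene was Etv5. Fitted log2 fold changes, ATM KO minus vector control, were positive for 6 and negative for 4 of the 10, with a median of 0.13 beside -0.009 over all tested genes. The sign of that median was not stable, since it was -0.16 without vector control 1 and -0.086 without ATM KO 3.

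Library depth, as reads recovered over the listed genes, ranged from 22494919 to 32341508. Vector control 1 stood apart from vector controls 2 and 3, with a correlation of log2 values across genes of 0.914 with either, against 0.997 between those 2. Read counts of vector controls 2 and 3 differed beyond counting noise in 10.8% of genes (chi-square test at the 5% level), against 69.5% to 83.1% for the other pairs within a group. For the 10 genes they differed in 0, with a mean chi-square of 0.438. Whether they came from 1 culture is not stated, and the log2 fold changes of the 10 genes were therefore also computed with both averaged as 1 sample. Of 7 epithelial markers, 6 were listed, and their summed level was 65641 to 107321 normalized counts in vector control and 80982 to 137390 in ATM KO libraries. Of the immune markers 2 of 7 were listed (Csf1r and Cd68, summed level 529 to 1467 and 702.5 to 1774), of the fibroblast markers 3 of 6 (146 to 547 and 344 to 754) and of the endothelial markers 1 of 5 (2.10 to 11.7 and 0 to 6.84). The sum hides different patterns of the 2 immune markers. Csf1r had 229, 378, 387 normalized counts in the controls and 968, 438, 1118.5 in the knockouts. Every knockout thus lay above every control, as for 5.7% of all tested genes. Cd68 had 301, 1001, 1080 and 806, 264, 226.5, with overlapping groups. The summed epithelial, immune and fibroblast levels were all lowest in vector control 1, and their part in the results was not tested. Atm itself does not check the labels: it ran 1978, 1613, 1519 over the controls and 1959, 2219.8, 1591 over the knockouts in normalized counts, with overlapping groups.

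Promoter windows ran from 250 bases before to 50 bases after a transcription start. They were taken from the RefSeq table for GRCm38.p6 for 7 of the 10 genes (8 windows, of which Etv5 has 2). No window of Dusp4, Spry4 or Etv4 was searched, and the counts out of 8 windows leave these genes out. Windows of Etv5 and Dusp6 are shown because Etv5 had the log2 fold change farthest from 0 and Dusp6 the widest range over libraries. Dusp5 is added because it alone of the 10 had groups that did not overlap. Of the 2 Etv5 windows, the one shown holds letters marked as below. The other (chr16:22439521-22439820, minus strand) spans the upstream end of the annotated gene at 22439719, held none of them and is not shown. Capitals mark the letters TGAATG on either strand (CATTCA when read on the other strand) and CArG boxes, the sites of serum response factor. TGAATG is a form of the core of the octamer that Capicua binds.
Etv5 (chr16:22438319-22438618, minus strand): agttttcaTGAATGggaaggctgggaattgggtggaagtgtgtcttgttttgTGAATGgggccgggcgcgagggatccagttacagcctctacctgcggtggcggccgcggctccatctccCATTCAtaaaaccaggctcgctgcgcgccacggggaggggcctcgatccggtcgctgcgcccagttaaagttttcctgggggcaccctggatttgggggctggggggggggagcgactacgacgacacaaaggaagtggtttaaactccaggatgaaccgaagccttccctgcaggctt
Dusp6 (chr10:99262981-99263280, plus strand): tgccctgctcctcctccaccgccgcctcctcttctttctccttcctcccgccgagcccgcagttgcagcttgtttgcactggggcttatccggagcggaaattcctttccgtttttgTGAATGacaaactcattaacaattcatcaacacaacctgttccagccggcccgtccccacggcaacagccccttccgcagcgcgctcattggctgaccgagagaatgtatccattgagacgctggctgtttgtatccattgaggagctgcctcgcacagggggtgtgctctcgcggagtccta
Dusp5 (chr19:53528895-53529194, plus strand): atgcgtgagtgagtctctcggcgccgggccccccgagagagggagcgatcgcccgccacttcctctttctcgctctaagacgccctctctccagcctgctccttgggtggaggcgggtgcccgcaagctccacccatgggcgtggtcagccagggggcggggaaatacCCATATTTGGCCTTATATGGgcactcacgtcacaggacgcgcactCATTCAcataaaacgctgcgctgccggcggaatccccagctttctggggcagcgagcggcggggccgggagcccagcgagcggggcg

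The Etv5 window shown held TGAATG 3 times, beginning 242, 198 and 129 bases upstream of its start, the third on the other strand. Of all 32851 windows of this length, 12.7% held the 6 letters at least once and 0.17% at least 3 times. Dusp6 had the letters once, 133 bases upstream, and Dusp5 once, 37 bases upstream on the other strand. The Dusp5 window also held 2 adjacent CArG boxes, 82 and 72 bases upstream, a motif present in 1.63% of all windows and present at least 2 times in 0.0183%. The other 5 windows, including the second of Etv5, held neither motif. Only 2 forms of the octamer were searched, TGAATGAA (1.3% of all windows) and TGAATGGA (1.21%). Of the ETS site only the form CCGGAAG (8.86%) was searched, and of the AP-1 site only TGANTCA (7.81%). These forms, all searched on both strands, were in 0 of the 8 windows, and other forms may be present. TGAATG lies within both octamer forms, so these searches were not separate. Other forms of the octamer that hold TGAATG were not searched, so a marked TGAATG may be part of one. Forms of the octamer with TCAATG in place of TGAATG were not searched and are not marked in the sequences.

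Each of the 3 phosphatase genes had its highest value in an ATM KO library, and for Dusp6 and Dusp4 the libraries of each group were far apart. Dusp6 (ENSMUSG00000019960, chromosome 10, 99263231 to 99267489, plus strand, GRCm38) encodes a cytoplasmic phosphatase selective for ERK. Normalized counts of Dusp6, in the order of replicates 1 to 3, were 1145, 4104.5, 4114 for vector control and 2405, 2676, 6545 for ATM KO. ATM KO 3 was the highest and vector control 1 the lowest library, 5.71-fold apart, and the other 2 ATM KO libraries lay between the controls. Group means were 3121 ± 1711 (SD, n = 3) and 3875 ± 2316, with a log2 fold change of 0.37 (SE 0.62) and a 95% interval from -1.11 to 1.86, which spans 0.46-fold to 3.63-fold. Without vector control 1 the log2 fold change of Dusp6 turned to -0.24, without ATM KO 3 to -0.082, and with vector controls 2 and 3 averaged it was 0.68.

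Dusp4 (ENSMUSG00000031530, chromosome 8, 34807297 to 34819894) encodes a nuclear phosphatase of ERK and the stress-activated kinases. In the same order, Dusp4 had 2022, 3809.5, 3879 normalized counts under vector control and 4866, 2548, 6837 under ATM KO. ATM KO 1 and 3 lay above every control, and ATM KO 2 lay within their range. Means were 3237 ± 1053 and 4750.2 ± 2147, a log2 fold change of 0.50 (SE 0.43, 95% interval -0.53 to 1.53). The value was 0.19 without vector control 1, 0.18 without ATM KO 3 and 0.89 without ATM KO 2.

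Dusp5 (ENSMUSG00000034765, chromosome 19, 53529109 to 53542431), whose product is a nuclear phosphatase specific for ERK, had the smallest spread of the 10. Control replicates gave 626, 679, 647 normalized counts of Dusp5 and knockout replicates gave 851, 692, 697.5. All 3 knockout values exceeded all 3 control values, though the gap between the nearest libraries (679 and 692) was within the counting error of 3.2% to 4.3% per library. Means were 651 ± 26.9 and 747 ± 90.5 (log2 fold change 0.19, SE 0.18, 95% interval -0.23 to 0.61). Groups that did not overlap were found for 1 of the 10 genes and for 11.2% of all tested genes, a share near that of the 10. With the knockouts higher, that was 1 of the 10 against 5.7% of tested genes, and with the knockouts lower 0 of the 10 against 5.48%. The log2 fold change of Dusp5 was 0.095 without ATM KO 1 and 0.21 with vector controls 2 and 3 averaged.

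**Figure D1:**
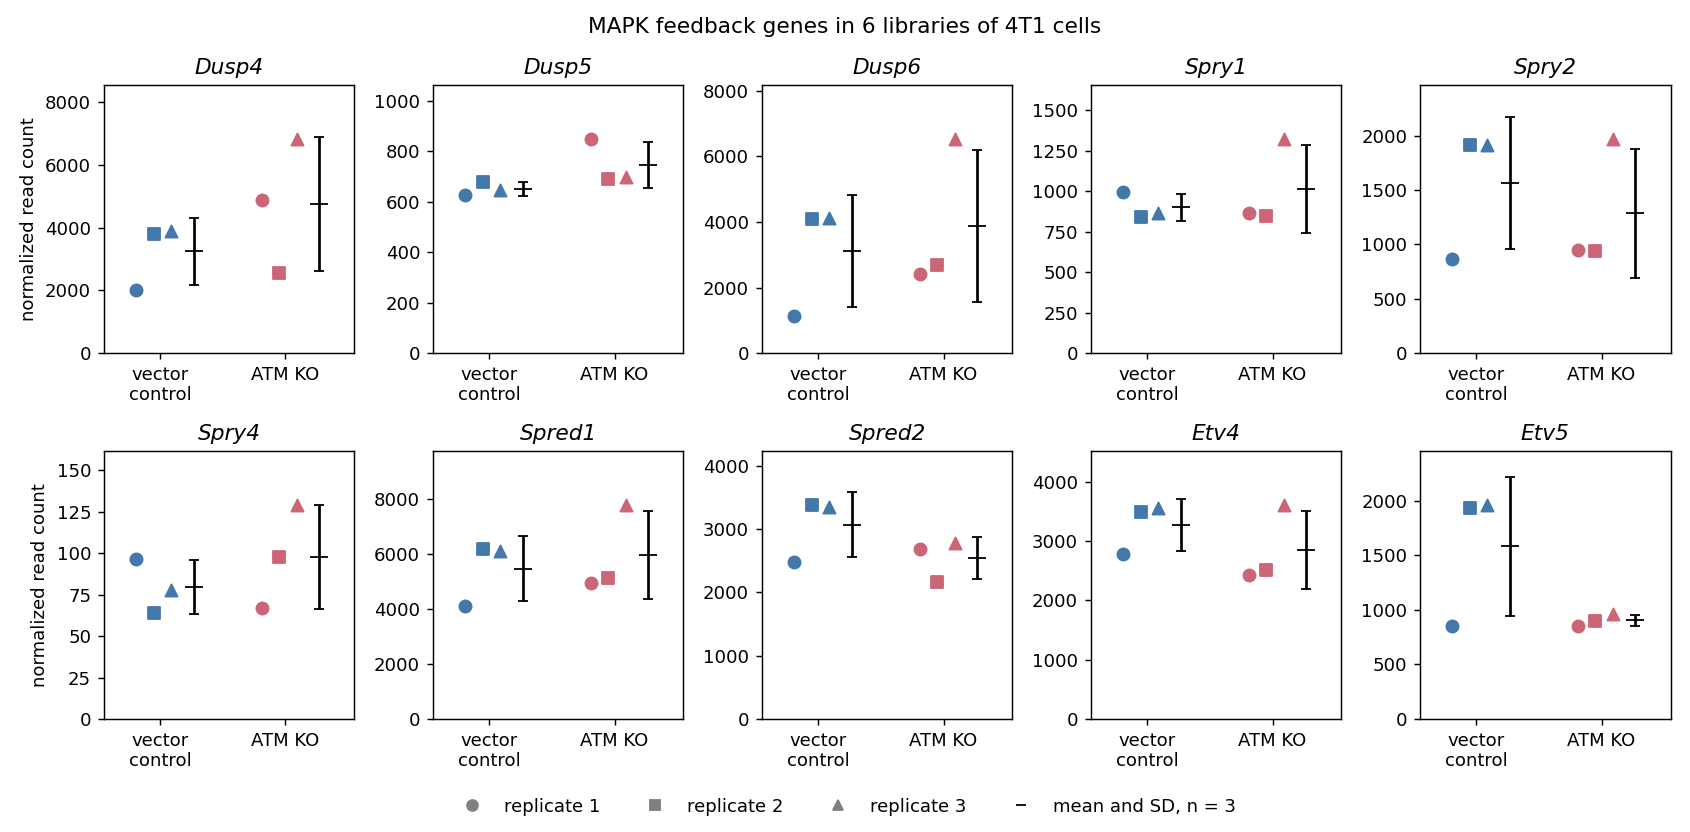
Normalized read counts (vertical axes, each from 0) of the 10 genes in 3 vector control (blue) and 3 ATM KO (red) libraries of 4T1 cells. Symbols stand for replicates 1 to 3 and the bars for the mean and SD. Vector control 1 is the lowest library for 6 genes and ATM KO 3 the highest for 7, and Etv5 stands at 855 to 957 in all ATM KO libraries.

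Among the Sprouty genes the fitted log2 fold change was positive for Spry1 and Spry4 and negative for Spry2, each with an interval that includes 0. Spry2 (ENSMUSG00000022114, chromosome 14, 105891947 to 105896819, minus strand), the Sprouty gene with the highest level, gave 863, 1917, 1917.5 normalized counts for vector control replicates 1 to 3, then 947, 941, 1973 for ATM KO. The values fell into a low set (vector control 1 and ATM KO 1 and 2) and a high set (vector controls 2 and 3 and ATM KO 3), so each group held libraries of both. Means were 1566 ± 609 and 1287 ± 594 (log2 fold change -0.28, SE 0.43, 95% interval -1.33 to 0.76). The log2 fold change was -0.67 without vector control 1, -0.64 without ATM KO 3, and -0.092 with vector controls 2 and 3 averaged.

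Spry1 (ENSMUSG00000037211, chromosome 3, 37639947 to 37644598) was more even, with control counts of 995, 842, 863 against knockout counts of 865, 845, 1325. ATM KO 3 alone exceeded the control range. Means were 899.9 ± 83.4 and 1011 ± 271 (log2 fold change 0.14, SE 0.23, 95% interval -0.41 to 0.69), and without ATM KO 3 the log2 fold change was -0.070. Spry4 (ENSMUSG00000024427, chromosome 18, 38586247 to 38601415, minus strand) was the least abundant of the 10, with only 66 to 101 reads per library. Control replicates 1 to 3 had 96.3, 63.9, 77.8 normalized counts of Spry4, knockout replicates 66.7, 97.6, 129. The groups overlapped, and counting error alone was up to 12.3% per library. Means were 79.3 ± 16.3 and 97.9 ± 31.3 (log2 fold change 0.27, SE 0.35, 95% interval -0.58 to 1.12), a value of 0.045 without ATM KO 3 and 0.52 without ATM KO 1.

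The fitted log2 fold change was positive for Spred1 and negative for Spred2, each with an interval that includes 0, and the difference between them was not tested. Spred1 (ENSMUSG00000027351, chromosome 2, 117121374 to 117182279), the member with the highest counts, had control counts of 4101, 6172, 6118 against knockout counts of 4950.2, 5137, 7800.2. As for Dusp6, vector control 1 was lowest, ATM KO 3 highest, and ATM KO 1 and 2 lay between the controls. Means were 5464 ± 1180.1 and 5962 ± 1594 (log2 fold change 0.12, SE 0.25, 95% interval -0.49 to 0.73), and the sign turned without vector control 1 (-0.075) or ATM KO 3 (-0.091). Spred2 (ENSMUSG00000045671, chromosome 11, 19924375 to 20024026) had 2481, 3389, 3343 normalized counts under vector control, 2682, 2164, 2778 under ATM KO. All ATM KO libraries lay below vector controls 2 and 3, and vector control 1 lay among them. Means were 3071 ± 511 and 2541 ± 331 (log2 fold change -0.27, SE 0.19, 95% interval -0.73 to 0.19), and the value stayed negative in each setting, from -0.41 without vector control 1 to -0.155 without ATM KO 2.

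Etv5 gave the largest difference of the 10, with lower values in all ATM KO libraries than in vector controls 2 and 3, but vector control 1 was as low as the knockouts. Etv5 (ENSMUSG00000013089, chromosome 16, 22381309 to 22439719, minus strand) gave normalized counts of 847.5, 1929, 1965 for vector control replicates 1 to 3, against 855, 896, 957 for ATM KO. The ATM KO libraries lay close together (mean 902.5 ± 51.6), while the controls were 1580.4 ± 635, and the groups overlapped through vector control 1 alone. The log2 fold change was -0.71 (SE 0.35, 95% interval -1.55 to 0.13), with an unadjusted p of 0.0839 by limma, 0.0483 by edgeR and 0.0308 by DESeq2. The adjusted p of Etv5 was 0.999, 1.0 and 0.689 in these tools.

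Without vector control 1 the log2 fold change of Etv5 was -1.11 (SE 0.13, 95% interval -1.44 to -0.78), and limma's adjusted p = 0.165 (0.000253 unadjusted) stayed short of the threshold. That fit rests on vector controls 2 and 3, whose counts for the 10 genes agree within counting noise. With those 2 averaged and vector control 1 kept, the log2 fold change of Etv5 was -0.51 (unadjusted p = 0.236, limma). Leaving out vector control 1 also raised the share of all tested genes with an unadjusted p under 0.05 to 14.6%, and 2 of the 10 genes, Etv5 and Spred2 (limma adjusted p = 0.325, 0.0392 unadjusted), had one. The same 2 genes were those with every ATM KO library below vector controls 2 and 3, a pattern met by 21.8% of all tested genes. The reverse, every ATM KO library above vector controls 2 and 3, held for 1 of the 10 (Dusp5) and 19.6% of tested genes.

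Etv4 (ENSMUSG00000017724, chromosome 11, 101769742 to 101785371, minus strand), the paralog of Etv5, had control counts of 2773, 3487, 3552 against knockout counts of 2419.5, 2509.5, 3614. ATM KO 1 and 2 were below every control, and ATM KO 3 was above every control. Means were 3271 ± 432 and 2848 ± 665 (log2 fold change -0.22, SE 0.21, 95% interval -0.72 to 0.29), with a range of -0.40 to -0.11 when 1 library was left out.

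**Figure D2:**
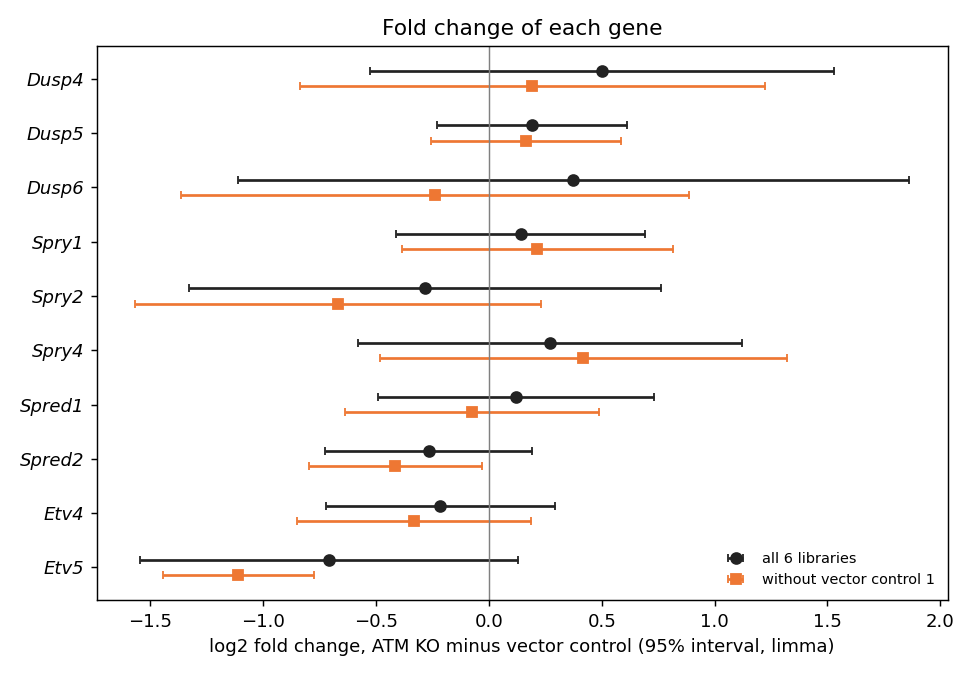
Log2 fold change of each gene, ATM KO minus vector control (horizontal axis), with 95% intervals from limma, for all 6 libraries (black circles) and without vector control 1 (orange squares). With all libraries every interval includes 0, and without vector control 1 those of Etv5 (-1.44 to -0.78) and Spred2 (-0.80 to -0.029) do not.

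Per kilobase of annotated exon, the 10 genes fell into 3 tiers. In vector control cells Dusp4 (1181 ± 384 normalized counts per kilobase), Etv4 (1054 ± 139), Dusp6 (997 ± 546), Spred1 (805 ± 174), Spry2 (750.4 ± 292) and Spred2 (665 ± 111) made up the top, and neighbours in that order differed by less than the larger of their SDs. Etv5 (385 ± 155), Spry1 (309.6 ± 28.7) and Dusp5 (263 ± 10.9) followed, and Spry4 (16.7 ± 3.43) came last. In ATM KO cells the order began with Dusp4 (1734 ± 783.5), Dusp6 (1237 ± 739), Etv4 (917 ± 214) and Spred1 (879 ± 235), and Etv5 (220.0 ± 12.6) lay below Spry1 (348 ± 93.4) and Dusp5 (302 ± 36.6), which it exceeded on average in the controls. In vector control 1, however, Etv5 (206.6) was also below Spry1 (342.5) and Dusp5 (253).

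For the 10 genes as a set, libraries of the same group lay far apart. The median deviation of the 10 genes from their mean over the 6 libraries on the log2 scale was -0.30, 0.18, 0.18 for vector control replicates 1 to 3, then -0.25, -0.23, 0.485 for ATM KO. The median deviation of 12 hypoxia targets was -1.76, 0.94, 0.94 across control replicates, then -0.10, -0.98, 0.96 across knockout replicates, so vector control 1 and ATM KO 2 were low and ATM KO 3 high in both, and the part of that shift in the results was not tested. Ndrg1, a hypoxia-induced gene, ranged from 4113 in vector control 1 to 70617 in vector control 3 while the knockouts had 30954, 10015, 54001. P4ha1, a collagen prolyl hydroxylase, and Ldha, lactate dehydrogenase A, were also lowest in vector control 1, at 2385 and 28013. In ATM KO 3 the deviation was 1.10 for Dusp6, 0.89 for Dusp4, 0.58 for Spry4, 0.57 for Spry2, 0.49 for Spry1, 0.48 for Spred1 and 0.26 for Etv4. Dusp5 (0.005) and Spred2 (0.004) stood at their means there, and Etv5 was below its mean (-0.27).

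**Figure D3:**
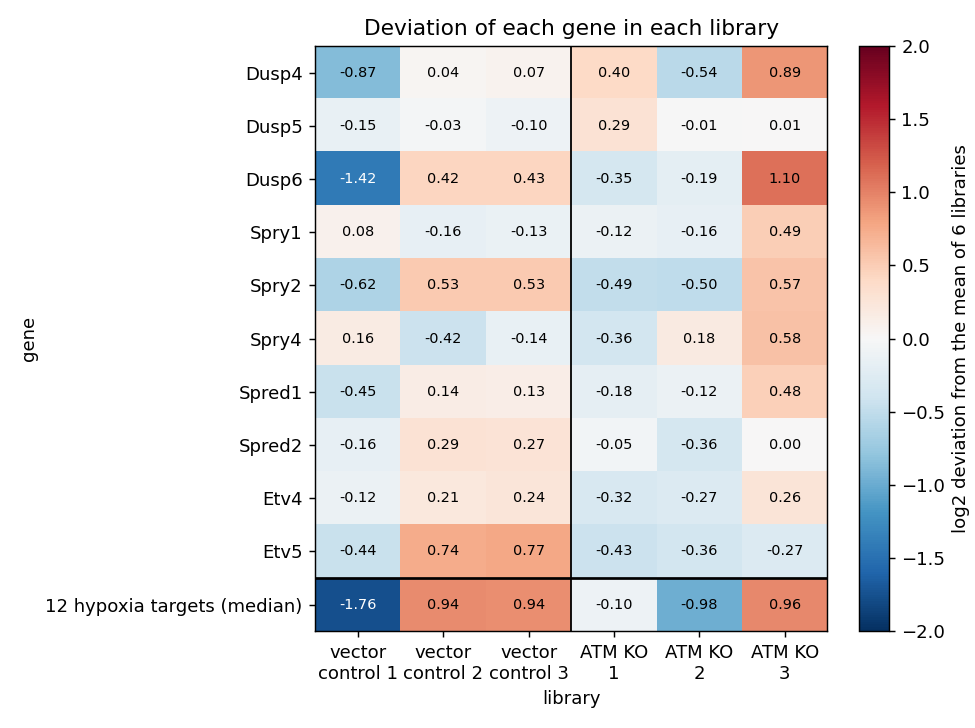
Log2 deviation of each of the 10 genes from its mean over 6 libraries (colour and printed value), with the median of 12 hypoxia targets in the bottom row. Columns are libraries and the vertical line parts the groups. Dusp6 runs from -1.42 in vector control 1 to 1.10 in ATM KO 3, and Etv5 is below its mean in vector control 1 and in every ATM KO library.

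The genes whose log2 values followed Dusp6 most closely over the 6 libraries were Nab2, a corepressor of EGR transcription factors (Pearson r = 0.998), Wbp1 (r = 0.997) and Trib2, a pseudokinase (r = 0.997). With 6 libraries of which vector control 1 lies far out, these values only describe the libraries. Normalized counts of Nab2 were 428, 896, 921 for control replicates, then 655, 696, 1275 for knockouts. Those of Trib2 were 413, 2889.5, 2886, then 1326, 1276.5, 6172. Among the 10, Spred1 was most like Dusp6 (r = 0.983), with 40 tested genes closer. It was followed by Spry2 (0.868), Dusp4 (0.813) and Etv4 (0.704), while Etv5 had 0.47 and Dusp5 0.093.

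Ratios of 2 genes within a library set aside what both share. This comparison was chosen after the values were seen. Of the 45 pairs among the 10 genes, 9 (20.0%) had ratios that did not overlap between the groups, against 11.4% of all pairs of tested genes; the pairs share genes and are not independent. Etv5 took part in 4 of the 9, Dusp4, Spry2 and Spred1 in 3 each, and Dusp5, Spry1 and Spry4 in 0. The ratio of Dusp6 to Etv5 was 1.35, 2.13, 2.09 for control replicates 1 to 3, then 2.81, 2.99, 6.84 for knockouts. Here vector control 1 was on the far side from the knockouts, unlike for Etv5 alone. The ratio of Spred1 to Etv5 was 4.84, 3.20, 3.11 against 5.79, 5.74, 8.15. That of Dusp4 to Etv5 was 2.39, 1.98, 1.97 against 5.69, 2.85, 7.14. Spry2 and Etv5, which had nearly equal counts in the controls (ratios of 1.02, 0.994 and 0.976), had ratios of 1.11 and 1.05 in ATM KO 1 and 2 and 2.06 in ATM KO 3. The gap between the nearest libraries (1.018 and 1.051) was within counting error, up to 3.4% for Spry2 and 3.7% for Etv5. Dusp4 over Spred2 (1.16 in vector control 3, 1.178 in ATM KO 2) was closer still. So was Spred1 over Spred2 (1.83 in vector control 3, 1.846 in ATM KO 1). Spred1 over Etv4 gave 1.48, 1.77, 1.72 against 2.046, 2.047, 2.16. With 3 libraries against 3, a 2-sided exact permutation test cannot give a p under 0.1, so no ratio was tested.

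**Figure D4:**
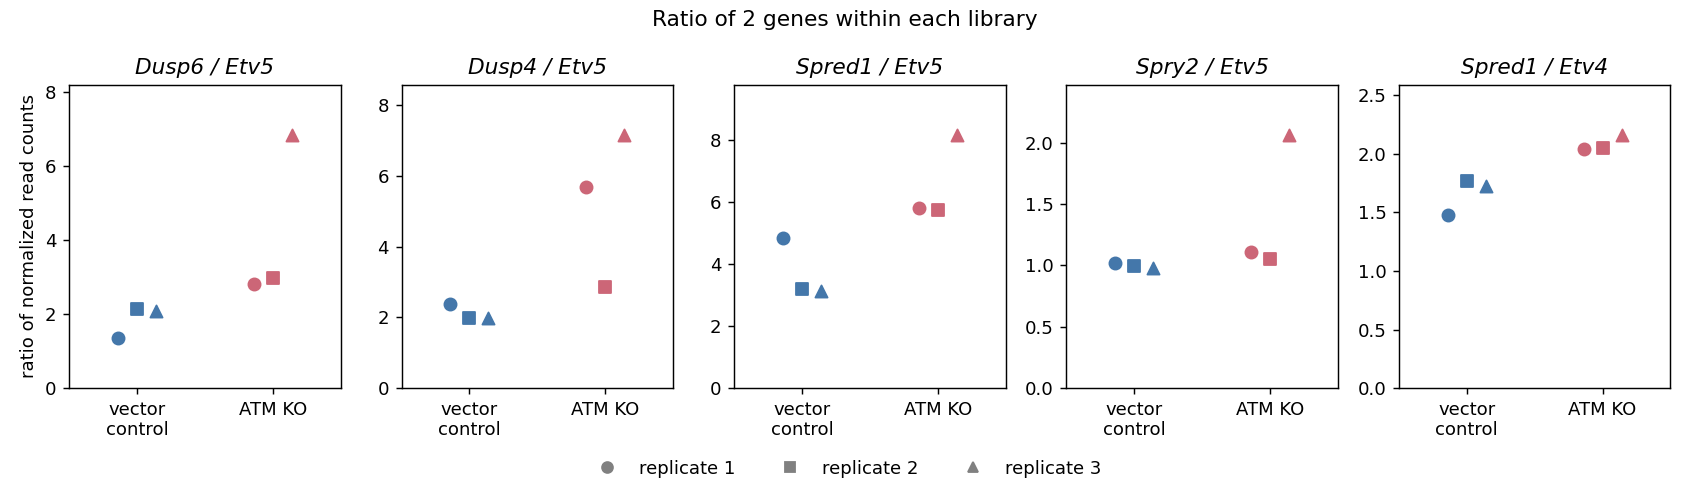
Ratio of normalized read counts of 2 genes within each library (vertical axes, each from 0) for 5 of the 9 pairs whose groups do not overlap, with vector control in blue, ATM KO in red and symbols for replicates 1 to 3. The ratio of Dusp6 to Etv5 is 1.35 to 2.13 in vector control and 2.81 to 6.84 in ATM KO libraries.

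The other genes of the pathway gave no list with a call by limma or edgeR. The ERK cascade had 9 positive and 5 negative log2 fold changes of 14 tested members (median 0.072, 0 called). The log2 fold change was 0.096 (SE 0.155) for Nras and -0.054 (SE 0.31) for the MEK gene Map2k1. Ras adaptors, exchange factors and GTPase-activating proteins split 6 to 8 of 14 (median -0.027, 0 called), with Ptpn11, the phosphatase SHP2 that relays receptor signals to Ras, at 0.096 (SE 0.27), Rasa1, a Ras inactivator, at 0.25 (SE 0.28) and Lztr1, which promotes Ras degradation, at -0.069 (SE 0.20). Of 14 growth factor receptor genes, 10 were tested, 3 positive and 7 negative (median -0.081, 0 called). The receptor tyrosine kinase genes Axl, Met and Fgfr2 had log2 fold changes of -0.20, -0.27 and -0.051. That of Met was -0.028 without ATM KO 3 and -0.43 without ATM KO 2, and Fgfr2 stood at 2881 in vector control 1 against 8308 and 8568 in the other controls.

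Of the other dual-specificity phosphatases 8 of 10 were tested, 5 positive and 3 negative (median 0.051, 0 called). Dusp9, another ERK phosphatase, ran opposite to Dusp6 across control replicates, at 4678.5, 667.5, 697 normalized counts, with knockout counts of 1540.0, 2243, 898. Its sign depended on the tool, with a log2 fold change of 0.17 by limma and -0.37 by edgeR and DESeq2. Dusp7 and Dusp16 had 0.19 (SE 0.205) and -0.16 (SE 0.275), and ranged from 0.033 to 0.32 and from -0.39 to -0.021 with 1 library left out, with Dusp7 lowest and Dusp16 most negative without vector control 1. Among 21 tested genes of other ERK output and feedback, 16 were positive and 5 negative (median 0.17), 0 passed limma and 1 passed DESeq2. That gene was Errfi1, an inhibitor of the EGF receptor, with a log2 fold change of 0.84. Its adjusted p was 0.799 by limma, 0.882 by edgeR and 1.68e-05 by DESeq2. Every ATM KO library of Errfi1 lay above every control, as for 5.7% of all tested genes. With 1 library left out its log2 fold change ranged from 0.81 to 0.90. The abundant members Ccnd1 (cyclin D1), Ier3 and Myc had log2 fold changes of 0.12, -0.10 and 0.030. Regulators of ETV, SPRY and DUSP genes or proteins were 12 positive and 6 negative of 18 (median 0.044, 0 called), with Ets1, Ets2 and Elk3, all ETS-family transcription factors, at -0.099, 0.62 and 0.20. With 1 library left out these ranged from -0.235 to -0.017, from 0.31 (without vector control 1) to 0.86 (without ATM KO 2) and from 0.067 (without ATM KO 3) to 0.29. Cic, named after its values were seen, had control counts of 4206.5, 8483, 8645 against knockout counts of 6488.5, 4904, 7520.0.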

How the data were processed

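Total RNA from 4T1 cells was extracted with RNeasy Plus kits and made into Illumina libraries, per the labels' protocols. Per the submitters' processing notes, the tools were STAR, HTSeq, DESeq2, SAMtools, cutadapt and Trim Galore; the builds named are mm9 and GRCm38, and neither versions nor roles are stated. The authors deposited 1 signal value per gene and library, which by its steps is a read count over a library-wide factor: 100.0% of values were whole multiples of 1 step per library within 0.01 reads. The strand setting of the counting was not given in the sources used here, so overlapping genes cannot be told apart. Coordinates and exon lengths are from GENCODE M21 (GRCm38), in which 13249 of the listed genes were found, and promoter sequences from RefSeq.

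Genes with a mean of at least 10 (12149) were tested with limma 3.58.1 in R 4.3.3 on log2(value + 1) with a mean-variance trend, 2-sided. A fold change on this scale understates changes of low genes. edgeR 4.0.16 and DESeq2 1.42.0 were run on the recovered reads. Alternatives were other pseudocounts (0.5, 10), filters (none, 50) and scalings, a replicate block and leaving out each library. The fits were also run on simulated counts, with the same dispersion for every gene and no library set apart. Vector control 1 stands apart in the real data, so that run does not show how the fits perform on these libraries. The 10 genes and the lists were chosen with earlier results of these data known. From each list the text names members past the threshold or, where none passed, the 3 with the highest mean, and besides these Atm and the 3 genes most like Dusp6. One gene that this rule names is not reported here.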

Additional observations from a re-analysis of the deposited data

How the results depend on the processing

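No gene of the 10 (0) was called under any of the 9 planned settings that keep all libraries, any of the 6 that leave out 1 library, or with vector controls 2 and 3 averaged, a setting added after the data were seen. Over all genes, 0 were called except by DESeq2, which called 84; the cause was not tested. The median log2 fold change of the 10 ranged from -0.16 to 0.23 when 1 library was left out. Values change mostly with single libraries: 3 of the 10 changed sign, Dusp6 (-0.24 to 0.68), Spred1 (-0.091 to 0.24) and Spry1 (-0.07 to 0.25), and 0 of the 10 did in the 9 settings that keep all libraries.

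Log2 fold changes of 17 of the 25 further genes that the naming rule selects changed sign when 1 library was left out: Axl -0.41 to 0.11, Ccnd1 -0.012 to 0.27, Dusp9 -0.31 to 1.10, Fgfr2 -0.57 to 0.22, Ier3 -0.52 to 0.13, Ldha -0.46 to 0.017, Lztr1 -0.25 to 0.027, Map2k1 -0.37 to 0.13, Myc -0.17 to 0.36, Nab2 -0.12 to 0.43, Ndrg1 -1.46 to 0.59, Nras -0.00017 to 0.19, P4ha1 -1.17 to 0.25, Ptpn11 -0.089 to 0.34, Rasa1 -0.054 to 0.47, Trib2 -0.40 to 1.00 and Wbp1 -0.092 to 0.34. Dusp9 was -0.368 by DESeq2 and -0.366 by edgeR, and Ndrg1 was 0.047 after quantile normalization. With vector controls 2 and 3 averaged, the sign changed for Dusp9 (-0.29), Fgfr2 (0.21), Ier3 (0.11), Ldha (0.013), Lztr1 (0.021), Map2k1 (0.105), Myc (-0.075), Ndrg1 (0.59), P4ha1 (0.235) and Ptpn11 (-0.024). The cause of these changes was not tested.

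Equal replicate numbers did not pair the libraries: deviations of same-numbered libraries from their group means correlated at -0.02, -0.58 and 0.53 for numbers 1, 2 and 3, and not every library correlated best with its own number. With a replicate block 0 genes were called, and 296 had an unadjusted p under 0.05, against 505 without it. In this balanced design the block leaves each log2 fold change as it was; the unadjusted limma p of Etv5 was 0.0653 with the block. Depth limits Spry4 most, with counting error of up to 12.3% per library.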

Other observations

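A few genes upstream of the 10 had groups that did not overlap, as 11.2% of all tested genes had. They were picked after their values were seen, and none (0) passed limma, edgeR or DESeq2 after adjustment. Araf, a RAF kinase, had 2161, 2184, 2161 normalized counts in control replicates against 2713, 2818, 2796 in knockout replicates (log2 fold change 0.36, SE 0.13, unadjusted p = 0.028 by limma, adjusted p = 0.999). Braf ran the other way, with 1836, 2286, 2357 against 1827, 1832.5, 1569 (log2 fold change -0.30, SE 0.17). Vector control 1 stood close to the other controls for Araf and near the ATM KO libraries for Braf.

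The scaffold Gab2 had control counts of 393, 376, 384.5 against knockout counts of 303, 227, 232 (log2 fold change -0.61, SE 0.21). The log2 fold change was -0.37 (SE 0.14) for Rasal2 and -0.28 (SE 0.16) for Rasa2, both Ras GTPase-activating genes, with every ATM KO library below every control. Elk1, an ETS factor phosphorylated by ERK, had 1030.5, 1199, 1199.9 against 1437, 1577, 1829 (log2 fold change 0.49, SE 0.17).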
